A study of Homo sapiens with 14 samples.

Results

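The mRNAs of 10 nuclear genes whose proteins copy, package or transcribe mitochondrial DNA (mtDNA) were followed in human fibroblasts exposed to an inhibitor of mtDNA replication. The genes were POLG, POLG2, TWNK, SSBP1, TFAM, POLRMT, MGME1, TOP3A, LIG3 and PRIMPOL. They were taken by symbol as genes whose proteins have these known roles. All 10 were among the 27142 genes of the deposited count table, and all 10 passed the filter on low counts, which left 13371 genes for testing. At 96 h of exposure TFAM was the member whose fall passed the test, by 19.5% (adjusted p = 0.0449 in edgeR). That call was close to the threshold and held in 14 of 23 alternative analyses. The other 9 members did not pass. On the log2 scale TOP3A was at -0.28 and LIG3 at -0.21 at 96 h, beside -0.31 for TFAM. POLG2 was at -0.26, with the widest interval of the 10 genes, and ran from -0.42 to 0.25 over the 23 alternatives. The remaining 6, SSBP1, POLRMT, TWNK, POLG, MGME1 and PRIMPOL, had 96 h estimates between -0.13 and 0.08.

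The cells were wild-type IMR90, an established fibroblast line from human fetal lung, grown in medium with 10% fetal bovine serum. They received ddC (2',3'-dideoxycytidine, an analog of deoxycytidine that ends DNA chains) at 20 uM for 24, 48, 72 or 96 h, with 3 libraries at each time. Untreated cells gave 2 libraries. Their labels name water as vehicle and 4 days, whereas the design text places them at 0 h, so their time in culture is uncertain. Replicates are biological according to the labels, and all libraries are of 1 cell line and 1 dose. Polyadenylated RNA from whole cells was sequenced, so neither mtDNA copy number nor protein was measured. In such bulk RNA a lower level in every cell cannot be told apart from fewer cells that carry the mRNA.

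As background, mtDNA is a small circular genome present in many copies per cell and copied by a dedicated machine rather than by the nuclear replisome. The polymerase POLG works with its accessory subunit POLG2, the helicase TWNK opens the duplex ahead of it, and SSBP1 coats the exposed single strands. POLRMT makes the transcripts that prime synthesis, and TFAM both activates that transcription and wraps mtDNA into compact nucleoids. ddC, once phosphorylated, is incorporated by POLG and stops the chain, which is why it depletes mtDNA in cultured cells. MGME1 trims single-stranded ends, TOP3A separates linked daughter molecules, LIG3 seals nicks, and PRIMPOL can reprime a stalled fork. TOP3A, LIG3 and PRIMPOL also serve nuclear DNA.

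Depth and cell identity bear on all values. Total counts were 9398703 to 12147402 per library. All 10 fibroblast markers were above 1 CPM (read count scaled to a common library size) in every library, with VIM at 4990 to 5720 CPM. The epithelial marker CDH1, the endothelial markers PECAM1 and CDH5 and the blood marker CD3E had 0 counts throughout. Other genes of these lists were present, KRT18 at 39.5 to 61.3, TEK at 34 to 45.7 and CD68 at 43 to 60.8 CPM among them. The summed CPM of the 5 epithelial markers was 54.7 to 55.5 in untreated cells and 71.4 to 78.4 at 96 h, and that of the 10 fibroblast markers 35300 to 36000 and 41300 to 44700. The 4 endothelial markers summed to 39.5 to 45.6 and 38.3 to 42.7 CPM, and the 4 blood markers to 51.3 to 53.7 and 48 to 50. The part of these shifts in the 96 h results was not tested. Libraries differed in other measures. The nuclear RNA MALAT1 ran from 52.1 to 409 CPM, with low and high libraries in most groups. Reads assigned to weak genes lying opposite abundant ones, over 126 such pairs, were 0.541 to 0.66 per 1000 reads of the abundant genes in 7 libraries and 0.837 to 0.967 in the other 7. The first set held untreated cells, 24 h and replicates 1 and 2 of 48 h, and the second held replicate 3 of 48 h, 72 h and 96 h. The set therefore moves with exposure time and can be separated from it through 48 h replicate 3 alone.

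Because the drug acts on mtDNA and the genes are nuclear, their promoter sequence is shown as context for the mRNA values. NRF1 and the ETS factor GABP are known activators of several mitochondrial genes. RefSeq windows on GRCh38.p14, from 250 bases before to 50 bases after each start, were found for 9 of the 10 genes (TWNK was the exception). The NRF1 core was searched as GCGC, N and TGCGC in 1 run and the ETS core as CCGGAAGT, each on both strands. The NRF1 core occurred in 4 of 9 members, against 6.98% of 27305 genes. The ETS core occurred in 2 of 9, against 4.95%. The 27305 genes were not limited to genes that passed the filter on low counts, as all members did. The shares are therefore not of a matched set, and no enrichment was tested. A 30-base stretch around 1 match per gene and core follows 5′ to 3′ on the strand of the gene, with the letters of that match in capitals. The printed NRF1 core match of POLRMT reads the same on both strands, so it is also a match on the opposite strand. POLRMT has a further NRF1 core match on that strand, in the stretch chr19:633536-633565. It overlaps the printed match, and its other letters are in lower case. A match is a description of letters and not a measured binding site.
TFAM, NRF1 core, chr10:58385337-58385366, plus strand: acgctctcccGCGCCTGCGCcaattccgcc
LIG3, NRF1 core, chr17:34980482-34980511, plus strand: cttggctcttGCGCCTGCGCgctgcctccc
POLG2, NRF1 core, chr17:64497049-64497078, minus strand: cacctccgttGCGCCTGCGCcgtggcctct
POLRMT, NRF1 core, chr19:633542-633571, minus strand: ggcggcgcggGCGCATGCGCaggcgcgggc
SSBP1, ETS core, chr7:141738352-141738381, plus strand: ttccctgtgcgCCGGAAGTgatcccctgcg
POLRMT, ETS core on the opposite strand, chr19:633613-633642, minus strand: cctgggagtctACTTCCGGctggggtttcc

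Levels were first compared between genes per kilobase of the gene model in the table, averaged over all 14 libraries. SSBP1 mRNA stood far above the rest at 132 ± 7.85 CPM per kb (SD, n = 14), with libraries from 118 to 146, and 96.6% of tested genes lay below it. MGME1 followed at 16.8 ± 1.16, POLG at 12.9 ± 1.4 and LIG3 at 11.5 ± 0.727 CPM per kb. SSBP1 encodes the protein that coats single-stranded mtDNA, and the genes next to it encode enzymes. TFAM stood at 8.26 ± 0.749 CPM per kb, PRIMPOL at 7.16 ± 0.493 and TOP3A at 5.2 ± 0.502. POLRMT was at 4.39 ± 0.469, TWNK at 4.3 ± 0.32 and POLG2 lowest at 3.56 ± 0.639 CPM per kb. The top and bottom of this order were 37-fold apart, and the median of all tested genes was 8.51 CPM per kb. Of the 9 pairs of neighbours in the order, 3 did not overlap over the 14 libraries: SSBP1 above MGME1, LIG3 above TFAM, and PRIMPOL above TOP3A. The other 6 pairs overlapped.

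**Figure D1:**
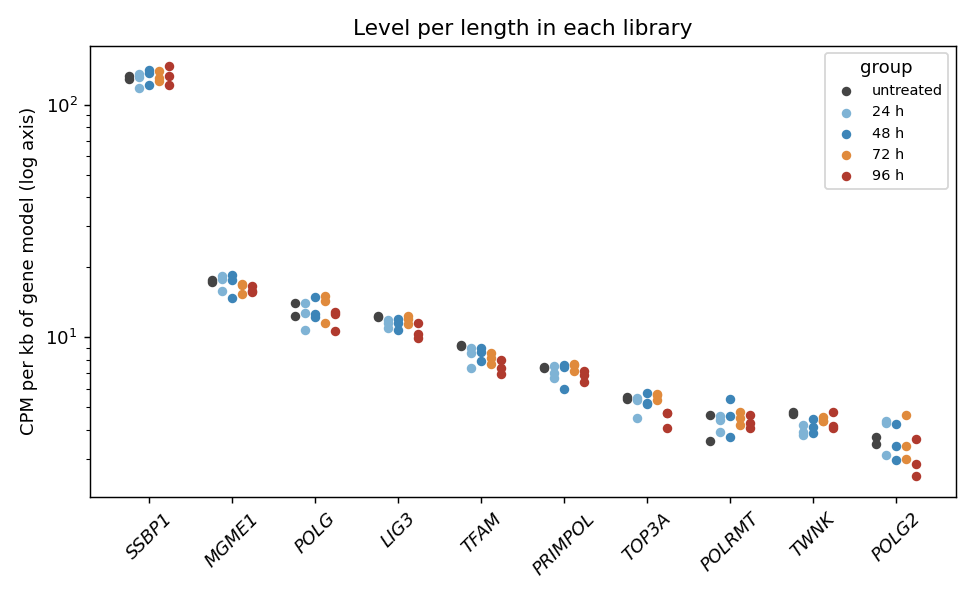
Level of each gene in each of the 14 libraries, in CPM per kb of gene model on a log axis, coloured by group and ordered by mean. SSBP1 (118 to 146) lies above all other members, and POLG2 is lowest with libraries from 2.53 to 4.63.

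These levels rest on 1 gene model per gene, given here on hg19. SSBP1 (NM_003143, chr7:141438121-141450288) was counted over 705 bases and POLG (NM_002693, chr15:89859536-89878026) over 4423 bases. TFAM (NM_003201, chr10:60144903-60158990) was counted over 5293 bases. A long or short model for a gene shifts its place in the order but not its fold changes. The PRIMPOL model, NR_144312, is a noncoding transcript of that locus. TFAM and POLRMT have pseudogene copies elsewhere in the genome, so reads shared with these make their counts uncertain.

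The catalytic polymerase and its accessory subunit showed no change that passed the test. POLG, the catalytic subunit, was measured at 54.9 and 61.8 CPM in untreated libraries, at 56, 62.2 and 47.7 at 24 h and at 53.9, 66.1 and 55.9 at 48 h. It was at 63.8, 66.4 and 51.1 CPM at 72 h and at 55.6, 47.3 and 57 at 96 h. All groups overlapped, and the 3 libraries of each treated time spanned more CPM than the 5 group means did. The 96 h log2 fold change of POLG against untreated cells was -0.13 ± 0.13 (SE; 95% interval -0.42 to 0.16; edgeR quasi-likelihood test, Benjamini-Hochberg adjusted p = 0.649). POLG2, the accessory subunit that holds the polymerase on its template, was at 5.55 and 5.91 CPM in untreated cells and at 5.79, 4 and 4.54 at 96 h. Its 96 h log2 fold change was -0.26 ± 0.22 (95% interval -0.72 to 0.20). With 46 to 86 reads per library POLG2 had the widest interval of the 10 genes. Against the 24 h cells, at 6.81, 6.96 and 4.95 CPM, the difference at 96 h was -0.38 ± 0.20 (95% interval -0.79 to 0.03; adjusted p = 0.376 by the same test). The ratio of POLG2 to POLG per kb was 0.273 over all libraries, from 0.222 to 0.34.

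The helicase and the single-strand binding protein also did not pass at any time. TWNK, the helicase, was at 17.1 and 17.5 CPM in untreated cells and at 13.9, 15.4 and 14.3 at 24 h, so all 24 h libraries were lower. It stood at 14.3, 16.4 and 15.1 CPM at 48 h and at 16, 16 and 16.6 at 72 h, again below both untreated libraries. At 96 h the TWNK libraries of 15, 17.4 and 15.2 CPM overlapped the untreated ones. The 24 h estimate was -0.25 ± 0.11 on the log2 scale, with an unadjusted p of 0.0308 and an adjusted p of 0.999 over all genes in edgeR, and the 96 h estimate was -0.13 ± 0.11. SSBP1 had the lowest coefficient of variation of the 10 genes, 5.97% over the 14 libraries, and also the most reads, 879 to 1188 per library. Counting noise is smaller at higher counts, so this coefficient does not rank the members by steadiness. SSBP1 stood at 94.1 and 90.7 CPM in untreated cells and at 86.3, 103 and 93.5 at 96 h. Its 96 h log2 fold change was 0.03 ± 0.08 with a 95% interval of -0.14 to 0.20, which leaves room for a difference of that size in either direction.

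TFAM, the packaging protein and transcription activator, had its lowest group mean at the longest exposure. So did POLG, POLG2, MGME1, TOP3A, LIG3 and PRIMPOL. It was at 49.3 and 48.7 CPM in untreated libraries. At 24 h it was at 47.5, 39 and 45.5 CPM, at 48 h at 45.9, 41.8 and 47.8, and at 72 h at 45.2, 40.5 and 43. At 96 h the 3 libraries were at 39.1, 42.5 and 36.8 CPM. All 12 treated libraries were below both untreated ones, and the 96 h libraries overlapped those of 24, 48 and 72 h. The share of all tested genes with all 12 treated libraries lower was not computed. At single times, 8.11% (24 h) to 19.8% (96 h) of all tested genes were lower than these 2 untreated libraries without overlap. The group mean went from 49 ± 0.411 CPM (SD, n = 2) in untreated cells to 39.4 ± 2.87 (SD, n = 3) at 96 h. TFAM mRNA fell by 0.31 ± 0.09 on the log2 scale at 96 h (95% interval -0.50 to -0.12; adjusted p = 0.0449, edgeR with Benjamini-Hochberg over all 13371 genes). At that time 5.68% of all tested genes were called, 2.11% of them lower and 3.57% higher (shares of all tested genes). The estimates were -0.16 ± 0.09 at 24 h, -0.12 ± 0.09 at 48 h and -0.19 ± 0.09 at 72 h, none of which passed. These 4 comparisons share the 2 untreated libraries, so they are not independent of each other.

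The TFAM call stands close to the threshold. The sign was the same under all 23 alternatives, with estimates from -0.48 to -0.27, but 9 of them lost the call. It was lost with DESeq2 (adjusted p = 0.0508), with the read set above as a term (-0.44 ± 0.15, adjusted p = 0.189), and when either untreated library was left out (adjusted p = 0.203 without replicate 1 and 0.229 without replicate 2). It was also lost without 96 h replicate 1 (0.116) or 3 (0.173), without 48 h replicate 1 (0.0516), and without 72 h replicate 1 (0.0503) or 2 (0.0511). Among treated cells alone, which do not use the untreated libraries, TFAM at 96 h against 24 h was at -0.16 ± 0.08 (adjusted p = 0.385). A linear trend over the treated times gave -0.05 ± 0.03 per 24 h (unadjusted p = 0.0494, adjusted p = 0.323 in edgeR). A single test of any difference among the 5 groups gave TFAM an adjusted p of 0.306.

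**Figure D2:**
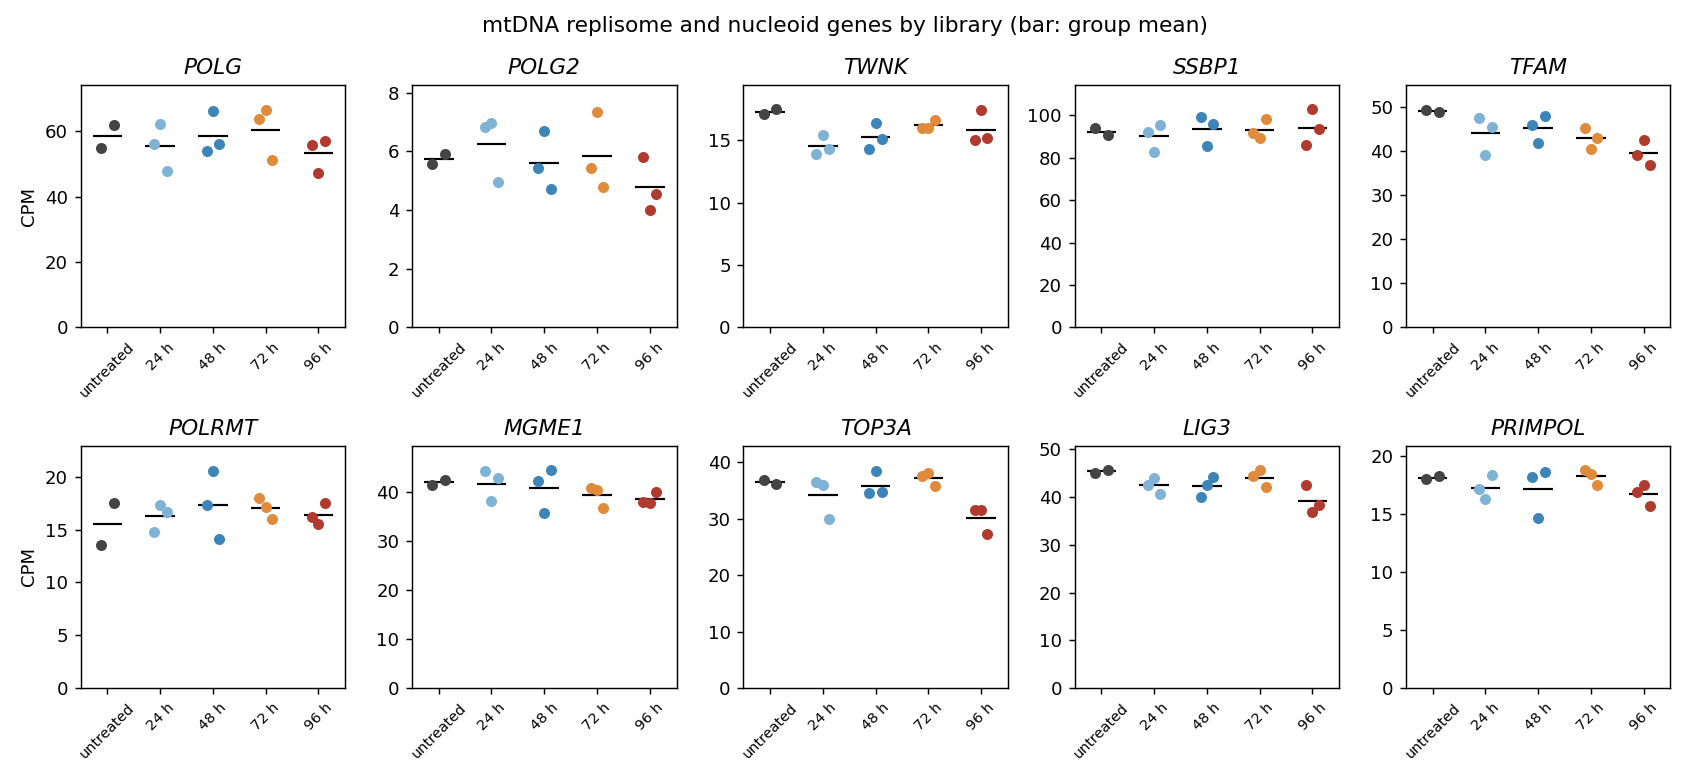
CPM of each of the 10 genes in every library (points) with the group mean (bar), for untreated cells (n = 2) and each ddC time (n = 3), with axes from 0. TFAM at 96 h (36.8 to 42.5) lies below untreated cells (48.7 and 49.3), while POLG, POLG2, POLRMT and SSBP1 overlap throughout.

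POLRMT, the mitochondrial RNA polymerase that makes both transcripts and primers, did not pass at any time. It was at 13.5 and 17.5 CPM in untreated cells and at 16.2, 15.5 and 17.5 at 96 h. The untreated libraries of POLRMT alone spanned the whole 96 h range. Its 96 h log2 fold change was 0.08 ± 0.14 (95% interval -0.22 to 0.37), and whether it differed from the change of TFAM was not tested. Over 23 alternatives the 96 h estimate of POLRMT ran from -0.1 to 0.56 and passed in none. Per kb, POLRMT stood at 0.53 of TFAM over all 14 libraries.

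Because SSBP1 and TFAM are the 2 major proteins that coat mtDNA, on single and double strands respectively, their ratio was followed within each library, where library scaling cancels. The log2 ratio of SSBP1 to TFAM per kb was 3.84 and 3.81 in untreated libraries, and 3.86, 4.00 and 3.98 at 24 h. It was 4.02, 3.95 and 3.92 at 48 h, 3.93, 4.05 and 4.10 at 72 h, and 4.05, 4.18 and 4.25 at 96 h. Every treated library was above both untreated ones, the nearest being 24 h replicate 1 at 3.86. On the linear scale the group means were 14.2 in untreated cells and 17.9 at 96 h. These ratios are a description, and no test was run on them. They use the same TFAM values and untreated libraries as above, so they are not a second observation of the TFAM fall. SSBP1 had a correlation of -0.81 within groups with the nuclear RNA score described below, and its part in the ratio was not tested.

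**Figure D3:**
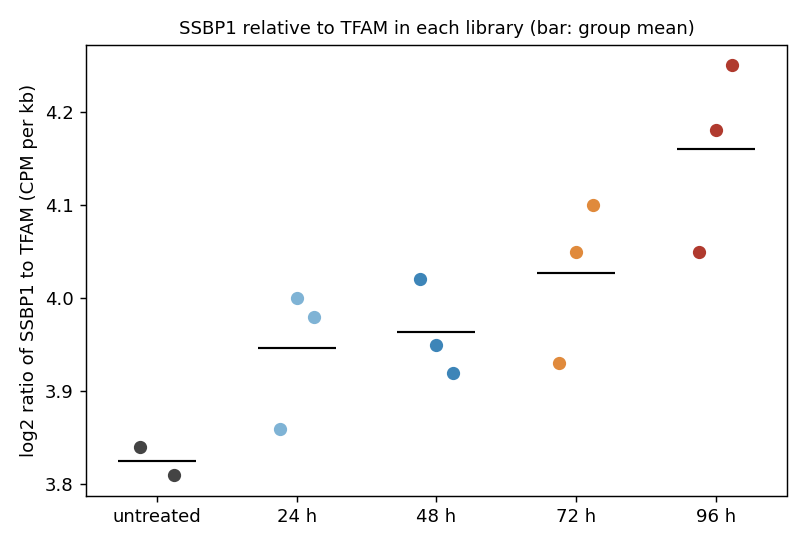
Log2 ratio of SSBP1 to TFAM in CPM per kb for each library (points) with the group mean (bar), with an axis that does not start at 0. Untreated libraries are at 3.81 and 3.84, and the 96 h libraries span 4.05 to 4.25.

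The genes of end processing, decatenation and ligation had lower estimates at 96 h without passing the test. MGME1, the exonuclease, was at 41.4 and 42.4 CPM in untreated cells and at 37.9, 37.7 and 40 at 96 h (-0.12 ± 0.09 on the log2 scale, adjusted p = 0.501 in edgeR). TOP3A, the topoisomerase, was at 36.9 and 36.2 CPM in untreated cells, at 37.6, 38.2 and 35.8 at 72 h, and at 31.5, 31.6 and 27.3 at 96 h. The 96 h libraries of TOP3A lay below those of both other groups. Its 96 h log2 fold change was -0.28 ± 0.09 against untreated cells (95% interval -0.48 to -0.08; adjusted p = 0.0902 in edgeR) and passed in 2 of 23 alternatives, with adjusted p from 0.0299 to 0.645. Against 72 h, a comparison chosen after the data were seen because both groups belong to the same read set, it was -0.31 ± 0.08 (95% interval -0.48 to -0.13; adjusted p = 0.122) and passed in none.

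LIG3, the DNA ligase, was at 45.1 and 45.7 CPM in untreated cells and at 42.6, 36.9 and 38.3 at 96 h. All 3 of the 96 h libraries of LIG3 were lower, with a log2 fold change of -0.21 ± 0.08 (unadjusted p = 0.0157, adjusted p = 0.132 in edgeR). PRIMPOL, the primase-polymerase, was at 18 and 18.3 CPM in untreated cells and at 16.9, 17.5 and 15.7 at 96 h. Its estimate was -0.12 ± 0.11 (95% interval -0.35 to 0.11). TOP3A and LIG3 also act in the nucleus, and these libraries cannot assign an mRNA to one compartment's protein.

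Counted over the 10 genes, 1 was called at 96 h (lower) and 0 at 24, 48 and 72 h. In all tested genes the called share in edgeR was 0% at 24 h, 0.00748% at 48 h, 0.179% at 72 h and 5.68% at 96 h (2.11% lower). Members at an unadjusted p under 0.05 were 1 (TWNK) at 24 h, 0 at 48 h, 1 (TFAM) at 72 h and 3 (TFAM, TOP3A and LIG3) at 96 h, against 3.42%, 6.01%, 7.24% and 19.8% of all genes. DESeq2 and limma-voom also called 0 members at 24, 48 and 72 h. The members' median log2 fold change was -0.07, -0.04, 0.01 and -0.13 at the 4 times, against 0.00 for all tested genes at each of them. Of the 10 estimates 8 were below 0 at 96 h, against 50.8% of all genes. Lower without overlap were TWNK, TFAM and LIG3 at 24 h and at 48 h, and TWNK, TFAM and MGME1 at 72 h. At 96 h they were TFAM, TOP3A, LIG3, MGME1 and PRIMPOL. The share of all tested genes lower without overlap was 8.11%, 12%, 12.2% and 19.8% at the 4 times.

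**Figure D4:**
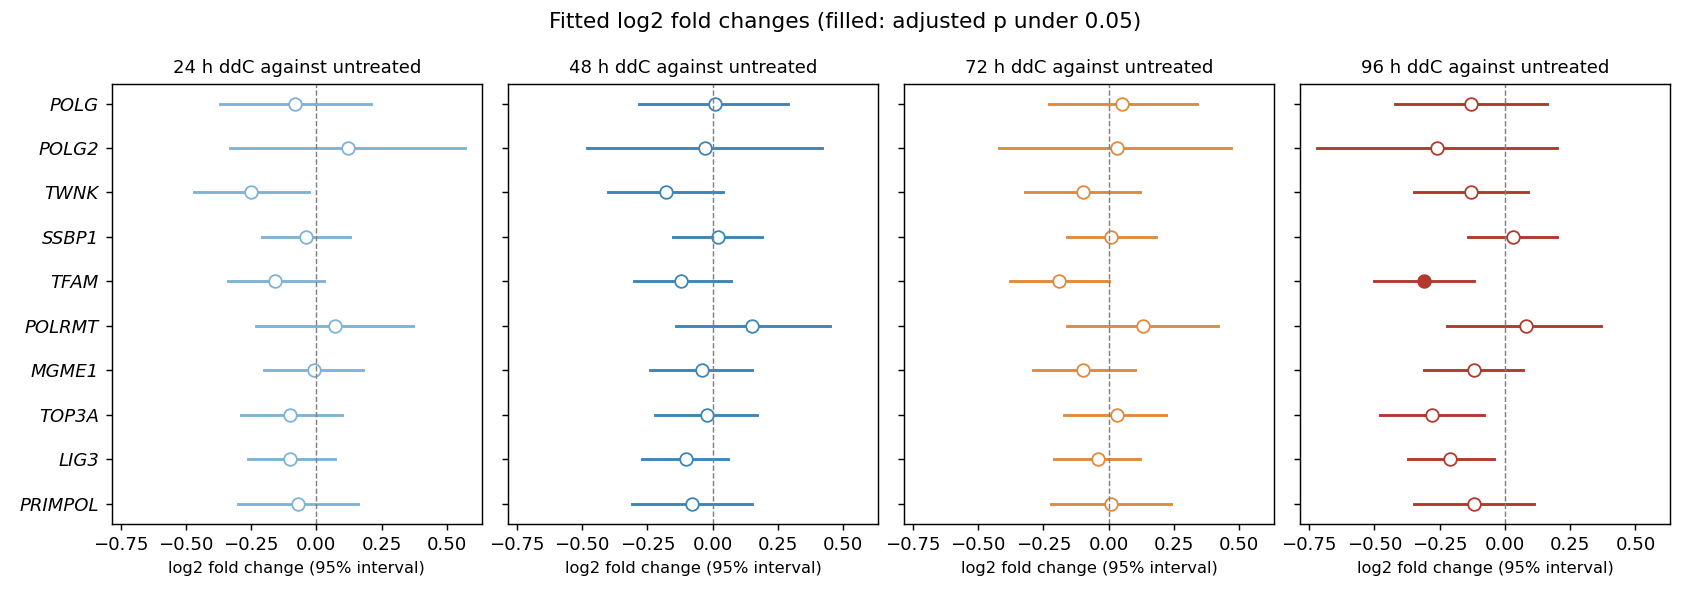
Fitted log2 fold change of each gene (point) with its 95% interval (line) at each ddC time against untreated cells, with filled points where the adjusted p was under 0.05. TFAM at 96 h (-0.31) is the filled point among 40 estimates, and the intervals of POLG2 are the widest.

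In the comparison of 96 h with 24 h, 0 members were called by edgeR, where 3.2% of all genes were, and 1 (TOP3A, -0.18 ± 0.09) had an unadjusted p under 0.05, against 15.2% of all genes. In that of 96 h with 72 h, 0 members were called, where 0.516% of all genes were, and 2 (TOP3A and LIG3) had an unadjusted p under 0.05, against 11.5% of all genes. TOP3A and PRIMPOL were lower without overlap in the second, as were 7.24% of all genes. The trend over treated times called 0 members, where it called 3.76% of all genes, and the test of any difference among groups called 0, where it called 3.25%. In the trend 1 member (TFAM) and in the test among groups 2 (TFAM and TOP3A) had an unadjusted p under 0.05, against 15.4% and 13.2% of all genes. DESeq2 and limma-voom likewise called 0 members in these 4 comparisons.

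Library composition moved with some members within groups. A nuclear RNA score, the mean log2 CPM of the noncoding RNAs MALAT1, NEAT1, MEG3 and KCNQ1OT1, had a Pearson correlation of 0.88 with POLG over the 14 libraries and of 0.93 within groups. That for SSBP1 was -0.77, or -0.81 within groups. The values for TFAM were -0.19 and -0.40, for TWNK 0.15 and 0.16, and for POLG2 0.68 and 0.71. They were 0.64 and 0.76 for LIG3, 0.52 and 0.61 for TOP3A, and 0.32 and 0.35 for POLRMT. MGME1 had -0.08 and -0.11, and PRIMPOL -0.16 and -0.36. The median of all tested genes was -0.06, or -0.08 within groups. Within groups, 3.19% of all tested genes had a higher value than POLG, 14.3% than POLG2, 12% than LIG3 and 18.9% than TOP3A. A lower value than that of SSBP1 was found in 5.55%. Points share library and depth, so these are descriptions. In the 72 h group, for example, MALAT1 was at 391, 409 and 81.5 CPM in replicates 1 to 3, and POLG at 63.8, 66.4 and 51.1. POLG and SSBP1 ran opposite to each other, with a correlation of -0.74, and POLG and POLG2 ran together at 0.74. What sets the score was not tested.

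**Figure D5:**
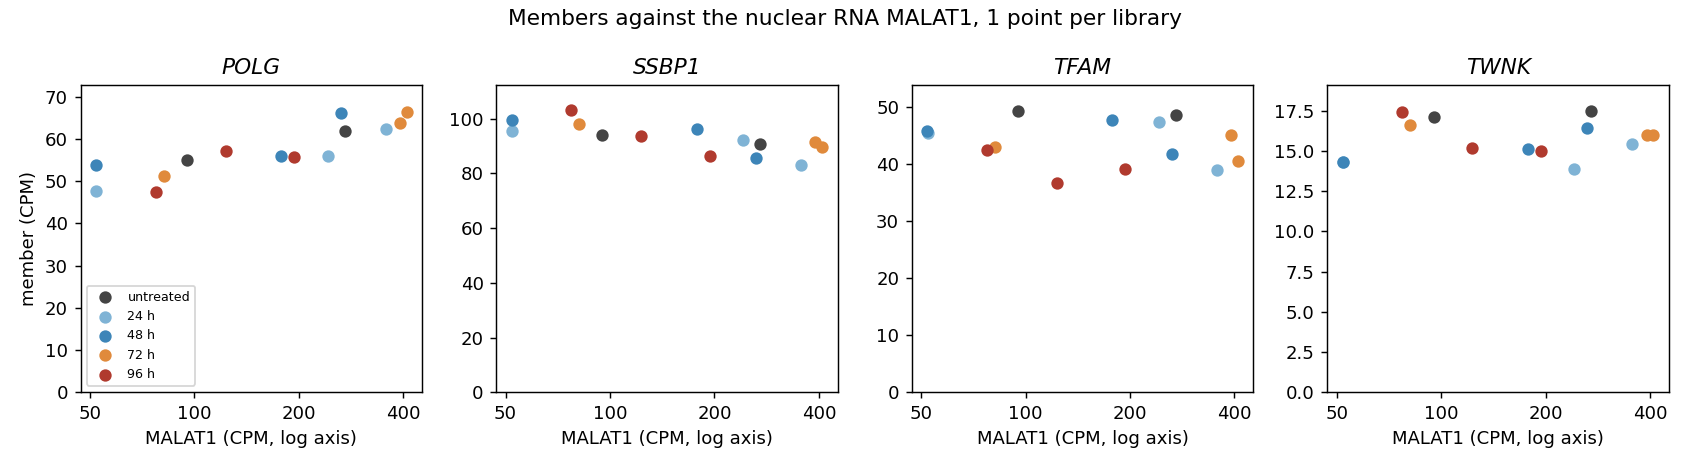
CPM of POLG, SSBP1, TFAM and TWNK against CPM of the nuclear RNA MALAT1 (log axis), with 1 point per library coloured by group. POLG is higher where MALAT1 is higher in every group colour except that 96 h libraries at 55.6 and 57 are nearly level. TFAM at 96 h is at 42.5, 36.8 and 39.1 CPM where MALAT1 is at 77.3, 123 and 194 CPM. Replicate 2 of 24, 48 and 72 h (39, 41.8 and 40.5) lies below the highest of these.

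With this score in the model the SE of POLG at 96 h was 0.07 instead of 0.13 and its estimate -0.07. TFAM was then at -0.33 ± 0.08 (adjusted p = 0.00384) and TOP3A passed at -0.26 ± 0.08 (adjusted p = 0.0299) in edgeR. SSBP1 was at 0.00 ± 0.06. The same model called 1848 genes at 96 h in place of 759.

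Genes were ranked by likeness of log2 CPM. The genes closest to TFAM in pattern over the 14 libraries were GALNT7 (Pearson r 0.94), WDHD1 (0.93) and ETF1 (0.93), and the most opposite was FKBP10 (-0.94), among 8475 genes. For POLG they were DENND4B (0.97), SPG7 (0.95) and TYK2 (0.95), with RNF5 opposite at -0.97. POLG itself had a correlation of 0.88 with the nuclear RNA score, and the part of that score in these values was not tested. For TWNK the best values were lower, with HIVEP2 at 0.78, RAPH1 at 0.74 and RUNX1 at 0.74, and ZFYVE21 opposite at -0.81.

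Other genes of the same biology were counted in lists chosen by function. Among 13 other enzymes of mtDNA replication and repair, 2 fell at 96 h, where 2.11% of all tested genes were called lower. FEN1, the flap endonuclease, went from 90.2 and 80.7 CPM to 63.7, 60.6 and 64.7 (-0.44 ± 0.07, adjusted p = 0.000654). UNG, the uracil glycosylase, went from 36.2 and 31.6 CPM to 22.6, 22.6 and 25.5 (-0.52 ± 0.10, adjusted p = 0.003, edgeR for both). Both also work in the nucleus. FEN1 also fell against 24 h (-0.28 ± 0.07, adjusted p = 0.0192), a call lost without 24 h replicate 2 (0.0614) or 96 h replicate 1 (0.0716) or 2 (0.0853), or with the read set as a term (-0.25, adjusted p = 0.513). With the read set as a term FEN1 did not pass at 96 h against untreated cells (-0.41, adjusted p = 0.124), nor did UNG (-0.61, adjusted p = 0.104), and UNG was also lost without untreated replicate 1 (0.0966). The list's median was -0.04.

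Among 11 nucleoid-associated proteins, 2 fell at 96 h, against the same 2.11% of all tested genes, and the median was -0.06. HSPD1, the matrix chaperonin, was at 257 and 248 CPM in untreated cells and at 207, 210 and 206 at 96 h (-0.29 ± 0.06, adjusted p = 0.00896). DHX30, an RNA helicase, was at 85.8 and 88.8 CPM and at 73.8, 71.8 and 74.3 (-0.25 ± 0.07, adjusted p = 0.0273, edgeR for both). All 96 h libraries of both genes were below the untreated ones. The HSPD1 call was lost without untreated replicate 1 (0.112) or 2 (0.0667), and that of DHX30 without untreated replicate 1 (0.107) or 2 (0.255) and without 96 h replicate 1 (0.0721), 2 (0.0791) or 3 (0.0629). With the read set as a term neither HSPD1 (-0.37, adjusted p = 0.111) nor DHX30 (-0.15, adjusted p = 0.606) passed.

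The partners and regulators of TFAM did not pass in edgeR. Of 7 mitochondrial transcription factors, edgeR, DESeq2 and limma-voom each called 0 at 96 h, 0 had an unadjusted p under 0.05, and the smallest p belonged to MTERF1 (-0.18 ± 0.14, adjusted p = 0.492). Of 10 regulators of mitochondrial biogenesis 8 were tested, edgeR and limma-voom called 0, DESeq2 called 1 (PPRC1), and 4 had an unadjusted p under 0.05, against 19.8% of all genes. PPARGC1A (1 to 10 counts) and PPARGC1B (0 to 7 counts) were too low to test. PPRC1, a coactivator related to these, was at -0.36 ± 0.11 (adjusted p = 0.0517), and passed in 7 of 23 alternatives, DESeq2 (0.024) among them. NRF1, whose core motif is shown above in TFAM, was at -0.24 ± 0.10 (adjusted p = 0.153 in edgeR). GABPA, the DNA-binding subunit of GABP, was at -0.20 ± 0.09 (adjusted p = 0.235). MYC had an estimate above 0 at 96 h, at 42 and 47.5 CPM in untreated cells and 52.5, 49.9 and 53.8 CPM then (0.22 ± 0.08, adjusted p = 0.101 in edgeR).

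Genes whose loss causes mtDNA depletion, or that supply deoxynucleotides to mitochondria, included 2 that rose. Of 9 tested, 2 rose at 96 h, against 3.57% of all tested genes called higher, and the median was 0.10. RRM2B, the ribonucleotide reductase subunit used outside S phase and a p53 target, was at 51.2 and 42.3 CPM in untreated cells and at 57, 63.4 and 55.6 at 96 h (0.33 ± 0.09, adjusted p = 0.0402). MPV17, an inner-membrane protein, was at 42.8 and 42 CPM and at 49.7, 50.7 and 53 (0.27 ± 0.08, adjusted p = 0.0449, edgeR for both). Both calls were close to the threshold. The call of RRM2B was lost without untreated replicate 2 (0.20, adjusted p = 0.491), without 72 h replicate 1 (0.0528), or without 96 h replicate 1 (0.0728), 2 (0.136) or 3 (0.0595). That of MPV17 was lost in 14 of 23 alternatives, with DESeq2 (0.063), with no filter on low counts (0.0606), and without untreated replicate 1 (0.174) or 2 (0.287), any 48 h library (0.05 to 0.0532), 72 h replicate 1 (0.051), or 96 h replicate 1 (0.0764), 2 (0.0711) or 3 (0.149) among them. With the read set as a term neither RRM2B (0.23, adjusted p = 0.58) nor MPV17 (0.23, adjusted p = 0.502) passed.

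The nuclear counterparts of the replisome were counted in the same way. Of 20 genes 7 fell at 96 h, against 2.11% of all tested genes, POLA1 and all 6 subunits of the MCM2 to MCM7 helicase, and the median was -0.24. MCM7 was at 250 and 258 CPM in untreated cells and at 169, 179 and 178 at 96 h (-0.53 ± 0.06, adjusted p = 1.32e-05). MCM4 (-0.50 ± 0.06, adjusted p = 1.35e-05) and MCM6 (-0.55 ± 0.07, adjusted p = 2.94e-05, edgeR) were similar, and the calls of these 3 held in all 23 alternatives. These helicase genes are known to be expressed with the S phase programme. The helicase of mitochondria, TWNK, was at -0.13 ± 0.11 at that time. LIG1, the nuclear replicative ligase, was at -0.19 ± 0.09 (adjusted p = 0.256), beside -0.21 ± 0.08 for LIG3. TOP3B, the paralog of TOP3A, was at -0.29 ± 0.14 (adjusted p = 0.248), beside -0.28 ± 0.09 for TOP3A. Differences between these genes' changes were not tested. Among treated cells, MCM2 to MCM7 also fell at 96 h against 24 h, with MCM7 at -0.34 ± 0.05 (adjusted p = 0.000552), a call lost with the read set as a term (-0.27, adjusted p = 0.325) and with set and score together (0.0586). MCM4 (-0.35, adjusted p = 0.142) and MCM6 (-0.30, adjusted p = 0.335) did not pass there with the read set as a term either, and MCM6 did not with set and score together (0.0631).

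At 24, 48 and 72 h edgeR and limma-voom called 0 genes of these 6 lists, and DESeq2 called 4, MCM2, MCM4, MCM6 and MCM7 at 72 h. The smallest p belonged at 24 h to MCM7 (-0.19 ± 0.06) in the nuclear list and FEN1 (-0.16 ± 0.07) among the enzymes. At 72 h it belonged to POLA1 (-0.44 ± 0.09, adjusted p = 0.0582) and UNG (-0.33 ± 0.10, adjusted p = 0.277). Genes with an unadjusted p under 0.05 numbered 7 of 20 nuclear counterparts at 24 h, 2 at 48 h and 8 at 72 h, and 1, 2 and 2 of the 13 enzymes. The share of all tested genes was 3.42%, 6.01% and 7.24% at these times.

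Genes next to the members were looked at last, since several members start within 1000 bases of a gene on the opposite strand on hg19. MRPL43 starts 21 bases from TWNK, SNX5 97 bases from MGME1 and SMCR8 188 bases from TOP3A. At 96 h MRPL43 was at 0.07 ± 0.08 and SMCR8 at -0.15 ± 0.08 (adjusted p = 0.288), and neither passed in edgeR. WEE2-AS1, 91 bases from SSBP1, had 63 counts in all libraries together and was not tested. The 3′ end of POLG overlaps FANCI on the other strand by 827 bases, and FANCI fell at 96 h (-0.29 ± 0.07, adjusted p = 0.0174), a call lost without untreated replicate 1 (0.0549) or 2 (0.273) or 96 h replicate 1 (0.0506) or 3 (0.0811), and with the read set as a term (-0.34, adjusted p = 0.206). PRIMPOL overlaps CENPU by 895 bases (-0.12 ± 0.08 at 96 h). Whether counting used strand is not given in the sources used here, so reads in these overlaps may be shared.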

How the data were processed

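Per the labels' protocols, the 14 IMR90 libraries were made from polyadenylated RNA with a kit that keeps strand. The authors used STAR 2.5.3a, HOMER and hg19, per the submitters' processing notes; strand setting and filters are not given in the sources used here. The deposited table holds raw read counts per gene, whole numbers, which the authors did not normalise. Columns were joined to samples by title.

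Counts were tested with edgeR 4.0.16 in R 4.3.3: TMM factors, filterByExpr (minimum count 10, minimum total 15), quasi-likelihood (robust) over 14 libraries and 5 group means, two-sided, Benjamini-Hochberg over all 13371 genes, called at 0.05. The SE is the size of the log2 fold change divided by the root of F. CPM uses TMM-scaled totals. p-values measure the spread between these libraries. Replicate pairs differed by more than sampling noise (chi-square per degree of freedom 1.66 to 10.6).

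Named were all 10 members, of each list up to 3 called genes per direction or else the gene of smallest p, and the 3 genes most like and the 1 least like POLG, TFAM and TWNK among those of average log2 CPM of at least 4. NRF1, GABPA, MYC, LIG1, TOP3B, PPARGC1A, PPARGC1B and the neighbours of members were named outside that rule. Members and lists were chosen with earlier results of these data known. Alternatives were median-ratio factors, DESeq2 1.42.0, limma-voom (limma 3.58.1), no filter, a replicate block, compared groups only, the nuclear RNA score and leaving out each library. The read set as a term, that set with the score, and 96 h against 72 h were added after seeing the data. Read-set pairs needed an abundant gene of at least 28000 reads and an opposite gene under 0.5% of it. The script was tested on simulated data. Promoter sequences are from RefSeq, GRCh38.p14; coordinates of gene models are hg19.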

Additional observations from a re-analysis of the deposited data

How the results depend on the processing

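Of 1600 values of members under alternatives, 1502 kept their sign and side of the threshold, 87 changed sign with neither value passing, 9 lost a call, 2 gained one and 0 reversed. Only TFAM at 96 h was called in the main analysis, so a call could be lost only in its 23 alternatives. All 9 losses were there. Members called at 96 h were 0 with DESeq2, 2 with the nuclear RNA score (TFAM and TOP3A), 0 with the read set as a term and 2 when the fit held the compared groups alone (TFAM and TOP3A), and 0 to 1 over the leave-one-out fits. The test among 5 groups called 1 member (TFAM) with the score. With the replicate number as a block TFAM was at -0.32 (adjusted p = 0.0445) and 1 member was called. Whether the numbers pair the libraries was not settled. A correlation over 0.1 was found in 12 of 26 same-numbered pairs and in 24 of 52 pairs of different number. Of 14 libraries, 6 correlated best with their own number. These correlations used values centred on groups of 2 or 3 libraries, so they cannot exclude a pairing.

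Genes called over all tested depended more on the model. DESeq2 called 1 at 24 h, 57 at 72 h (24 in the main analysis) and 127 at 96 h against 72 h (69). Without the filter there were 1, 3 and 47 at 24, 48 and 72 h and 117 at 96 h against 72 h. The score gave 1, 34, 247 and 1848 at the 4 times, 1091 for 96 h against 24 h (428), 248 against 72 h, 1274 for the trend (503) and 1367 among groups (435). The read set gave 2, 0 and 121 at 48, 72 and 96 h, 37, 26 and 91 for 96 h against 24 h, the trend and the groups. Set and score together gave 4, 107 and 127 at 24, 48 and 72 h, 329 for 96 h against 72 h and 748 among groups. Compared groups alone gave 7 at 72 h and 1646 at 96 h. Leave-one-out ranges were 0 to 1, 0 to 2, 1 to 35 and 174 to 1034 at the 4 times, 223 to 545 and 5 to 243 against 24 and 72 h, 280 to 537 for the trend and 223 to 583 among groups. Neighbours distinct in level were 8 in untreated libraries alone and 5 in 48, 72 or 96 h alone.

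With 2 untreated libraries, leaving out 1 assumes the other varies like the rest. At 46 to 86 reads, POLG2 changes under its interval were not detectable.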
